A study of Mus musculus with 8 samples.

Results

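The S100 genes described here encode small calcium-binding proteins of the EF-hand type. The members followed were S100a1, S100a4, S100a6, S100a8, S100a9, S100a10, S100a11 and S100a13, and all 8 were found among the 19938 genes that had a probe set annotated to a single gene. They were listed by gene name with earlier results of these arrays known, so they are not a sample of S100 genes blind to the data, and each is represented by its brightest single-gene probe set. The arrays measured dendritic cells sorted by flow cytometry from 4 mice, which gave 4 arrays of myeloid dendritic cells from bone marrow (femur and tibia) and 4 arrays of classical dendritic cells from spleen, 1 of each tissue per mouse. Every mouse, in both groups, was 8 weeks old and CX3CR1-gfp/+, meaning that 1 allele of the fractalkine receptor gene carries a green fluorescent protein reporter, and no treatment was labelled. The sources used here do not give the surface markers of the sort. RNA was amplified with a kit for picogram inputs. The comparison asks how the marrow cells differ from their splenic counterparts, and whether the granulocyte genes S100a8 and S100a9 differ in the same way as the members that many cell types express.

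S100 proteins form dimers that open on binding calcium and then grip partner proteins, such as annexins and myosin, inside the cell. S100a8 and S100a9 pair with each other as calprotectin, which fills the cytosol of neutrophils and monocytes, withholds zinc and manganese from microbes, and acts outside the cell on the receptors Tlr4 and Ager (RAGE). S100a4, S100a6, S100a10 and S100a11 are made by many cell types and act mostly on the cytoskeleton and at membranes. S100a13 takes part in the release of cytokines that lack a signal sequence, and S100a1 is best known from heart muscle, where it tunes calcium cycling.

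All 8 members differed between the tissues at the threshold used, S100a6 only narrowly. S100a8, S100a9, S100a1, S100a10 and S100a13 were higher in bone marrow, and S100a11, S100a4 and S100a6 were lower (limma, adjusted p under 0.05, n = 4 per group). Of all 19938 genes, 9.26% passed as higher, 9.2% as lower and 18.5% in either direction. No filter was applied, so these shares include dim probe sets. Because of how the members were chosen, their count is a description beside these shares. The 4 arrays of one tissue lay wholly above the 4 of the other in all 8 members, which holds for 20.6% of all genes (10.4% with bone marrow above and 10.2% with it below). In bulk samples of sorted cells, more cells of a type cannot be told apart from more RNA per cell. Of the 8, 4 differed at least 2-fold. The median log2 fold change of the 8 members, as bone marrow minus spleen, was 0.52, beside -0.0071 over all genes. The call of S100a6 was the weakest. It was kept in 6 of 15 alternatives and ended in most fits that left out an array, as described with its values below.

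The spread between arrays was small next to the difference between tissues. Over all genes the log2 intensities of arrays correlated with Pearson's r of 0.993 to 0.996 within bone marrow, 0.991 to 0.995 within spleen and 0.968 to 0.976 between the tissues. Genes are not independent replicates, so these values only describe the arrays. In the check of the labels, Zbtb46, Flt3 and Itgax, which mark classical dendritic cells, passed as lower in bone marrow, with a geometric mean intensity for Zbtb46 of 214 in bone marrow, against 520 in spleen, for Flt3 of 1967 in bone marrow, against 4078 in spleen, and for Itgax of 6409 in bone marrow, against 8432 in spleen. These were 3 of 8 dendritic cell markers. The other 5, H2-Ab1, Cd74, Batf3, Irf8 and Irf4, did not pass in either direction, adjusted or at an unadjusted p under 0.05 in limma, with log2 fold changes from -0.09 to 0.07, and the median of the 8 was -0.08. Of the markers of other cells, 16 of 17 for neutrophils, 7 of 8 for classical monocytes and 8 of 9 for macrophages passed as higher in bone marrow, while 3 of 3 T cell genes and 3 of 4 B cell genes were lower. Over all genes, 9.26% passed as higher and 9.2% as lower. The summed intensity of the neutrophil markers, from which S100a8 and S100a9 were left out, ranged from 19673 to 25593 in bone marrow and from 2550 to 3211 in spleen. That of the monocyte markers ranged from 23780 to 27130 in bone marrow and from 6535 to 7741 in spleen, and that of the macrophage markers from 24934 to 34731 in bone marrow and from 5581 to 6464 in spleen. The table has no detection call. All deposited intensities were above 0, so a value above 0 does not show that a marker was detected. Some markers lay below the array medians of 125 to 135, such as Ms4a1 in bone marrow (67.9 to 90.2) and Mgst1 in spleen (27.0 to 59.9). The T cell sum ranged from 294 to 392 in bone marrow and from 401 to 596 in spleen, and the B cell sum from 929 to 967 in bone marrow and from 1185 to 1451 in spleen.

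**Figure D1:**
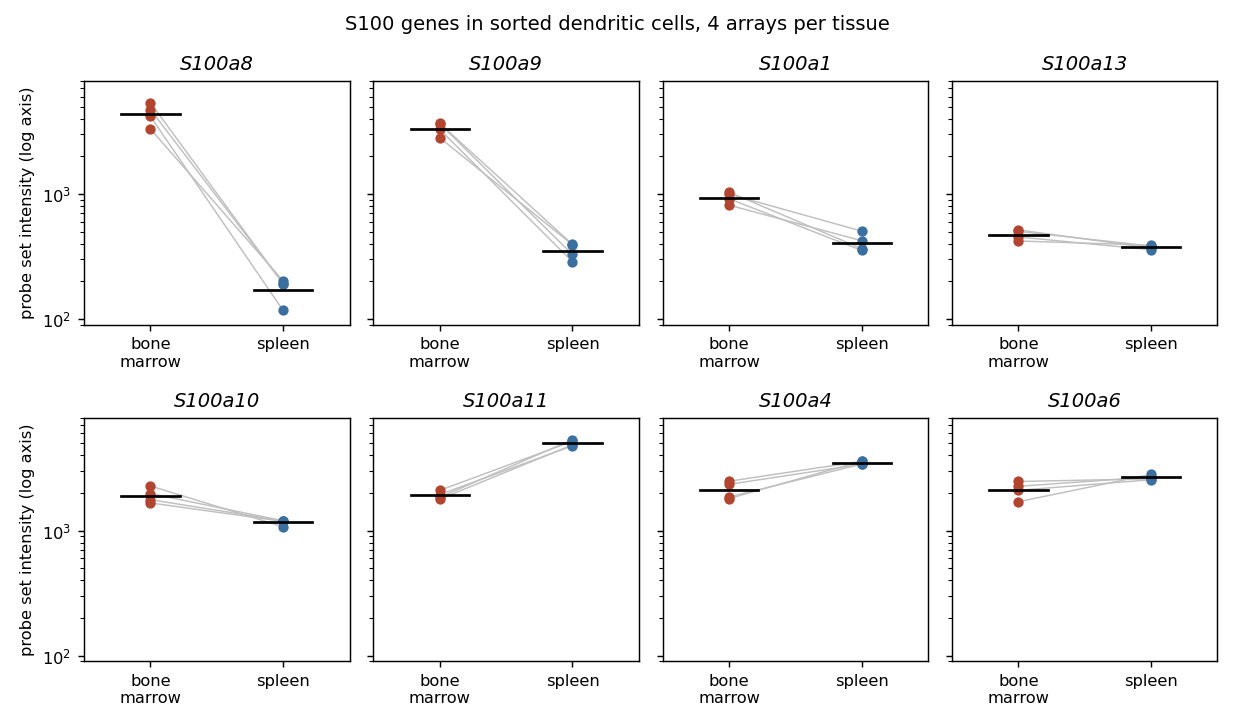
Probe set intensity (log axis) of each S100 member in every array, bone marrow left and spleen right; points are arrays, black bars geometric means of 4 arrays, and grey lines join the 2 arrays of a mouse. S100a8 and S100a9 stand 25.2-fold and 9.60-fold higher in bone marrow, and in every panel the points of the 2 tissues do not overlap. Heights of different genes are not comparable, because each probe set has its own brightness.

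S100a8 and S100a9 are neighbours on chromosome 3 and are transcribed from opposite strands. Because both were high in the same arrays, the 250 bases before the start of each are shown, written 5′ to 3′ on the strand of the gene, from RefSeq on GRCm38.p6. Capitals mark matches, on either strand, to 4 motifs: the C/EBP motif TTNNGNAA, the PU.1 motif GAGGAAG, the AP-1 motif TGANTCA and the TATA box TATAAA.
S100a8, chr3:90668821-90669070, plus strand: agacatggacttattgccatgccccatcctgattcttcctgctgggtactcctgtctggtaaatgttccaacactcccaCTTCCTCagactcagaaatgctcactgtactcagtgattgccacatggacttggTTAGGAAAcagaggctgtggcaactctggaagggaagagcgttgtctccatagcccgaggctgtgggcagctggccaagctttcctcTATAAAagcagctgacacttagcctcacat
S100a9, chr3:90695722-90695971, minus strand: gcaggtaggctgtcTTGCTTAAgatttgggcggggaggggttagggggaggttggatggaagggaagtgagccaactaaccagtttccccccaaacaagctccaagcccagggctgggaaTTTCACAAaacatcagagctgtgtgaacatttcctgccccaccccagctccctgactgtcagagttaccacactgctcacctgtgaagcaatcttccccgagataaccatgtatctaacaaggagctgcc
The S100a8 stretch held a TATA box at positions -30 to -25 from the start, a C/EBP match at -117 to -110 and a PU.1 match on the opposite strand at -171 to -165. The S100a9 stretch held C/EBP matches on the opposite strand at -236 to -229 and at -130 to -123, and its only TATAAA lay at the start itself, at positions 1 to 6, beyond the printed bases. Of 32851 RefSeq promoter windows of 300 bases (250 before and 50 after a start), 40.7% held the C/EBP motif, 13.6% the PU.1 motif, 7.81% the AP-1 motif and 13.6% the TATA box. The matches describe the sequence and do not show that a factor binds there.

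For S100a8 the intensities of bone marrow replicates 1 to 4 were 4733, 3310, 5367 and 4167, against 192, 202, 191 and 117 in spleen replicates 1 to 4. The lowest bone marrow array was far above every spleen array, and spleen replicate 4 lay apart from the other spleen arrays on the low side. The gene was 25.2-fold higher in bone marrow (log2 fold change 4.66 ± 0.18 SE, 95% interval 4.27 to 5.04, n = 4 per group, limma adjusted p = 1.9e-09). Only 2 of the 19938 genes had a larger log2 fold change, which placed S100a8 at rank 3. Its spleen intensities lay near the array medians of 125 to 135, and whether they were above background is unknown, so the fold and the rank describe the probe set values.

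For S100a9 the intensities of bone marrow replicates 1 to 4 were 3670, 2815, 3643 and 3284, against 394, 392, 328 and 287 in spleen replicates 1 to 4. The groups were again far apart, and the lowest array of each tissue was the same one as for S100a8, replicate 2 in bone marrow and replicate 4 in spleen. S100a9 was 9.60-fold higher in bone marrow (3.26 ± 0.12 SE on the log2 scale, 95% interval 3.00 to 3.52, limma adjusted p = 1.7e-09) and ranked 22 from the highest. Within each mouse the log2 difference of S100a8 exceeded that of S100a9, by 1.41, 1.20, 1.34 and 1.64 in mice 1 to 4.

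The neutrophil markers were higher in bone marrow, as were those of macrophages and classical monocytes (median log2 fold change 2.80, 3.59 and 2.52). A rise was thus not particular to the neutrophil list. The summed intensity of the neutrophil markers was 8.41-fold higher in bone marrow. Single markers had log2 fold changes from 0.49 for Mmp9 to 5.08 for Ngp. Csf3r (605) and Mmp9 (579) were the brightest of them in spleen, so the fold of the sum depends on which markers are summed. The log2 difference of the sum was 2.91, 2.86, 3.19 and 3.33 in mice 1 to 4. S100a8 differed by 4.62, 4.04, 4.81 and 5.16 on the log2 scale in the same mice. Bone marrow replicate 2 was the lowest of its tissue and spleen replicate 4 the lowest of its tissue in the neutrophil sum as in both S100 genes. Ly6g, a surface marker of neutrophils, had a level of 172 in bone marrow, against 58.2 in spleen, beside array medians of 125 to 135. Mmp9 was the 1 neutrophil marker that did not pass (812 in bone marrow and 579 in spleen, 0.49 ± 0.20 SE on the log2 scale, limma adjusted p = 0.12). The part of admixed neutrophils or monocytes in the S100a8 and S100a9 levels was not tested.

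The genes whose pattern over the 8 arrays was most like S100a8 were Ltf, Lcn2, Ngp, Camp and C3ar1. Likeness was the root mean square difference of log2 values after each gene was centred on its own mean, and was 0.310 for Ltf, 0.345 for Lcn2, 0.365 for Ngp, 0.411 for Camp and 0.448 for C3ar1. Ltf, Lcn2, Ngp and Camp encode proteins of neutrophil granules and are also in the neutrophil marker list, and C3ar1 is a complement receptor. Around S100a9 stood Mgl2, a galactose-type lectin (0.225), the neutrophil collagenase gene Mmp8 (0.23), neutrophil elastase Elane (0.24), the immunoglobulin G receptor Fcgr3 (0.26) and the lipid hydrolase Aoah (0.27). S100a8 and S100a9 differed from each other by 0.71 on this measure. Among 18329 genes compared, S100a9 was 16th nearest to S100a8, while S100a8 was 90th nearest to S100a9. The measure takes in the size of the difference between tissues, so genes of similar log2 fold change rank near each other. It therefore does not show, here or for the other members, whether genes vary together among arrays of one tissue.

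The other 6 members split into 3 that were higher in bone marrow and 3 that were lower. The mean log2 fold change was 3.96 for S100a8 and S100a9, against -0.04 for these 6. The difference of 4.00 was 4.07, 3.29, 4.33 and 4.30 in mice 1 to 4 (SD 0.49 over the mice). This value over the members is a description and was given no test. None of the 6 changed by as much as S100a9, and the largest in size was S100a11.

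For S100a1 the intensities of bone marrow replicates 1 to 4 were 997, 1036, 916 and 813, against 504, 365, 354 and 423 in spleen replicates 1 to 4. Every bone marrow array was above every spleen array, and spleen replicate 1 was the highest of its tissue. S100a1 was 2.30-fold higher in bone marrow (1.20 ± 0.12 SE in log2 units; limma, n = 4 per group, adjusted p = 8.7e-06), a larger log2 fold change than that of 98.5% of all genes. Its nearest patterns were those of Ttc39c (0.099), AB124611 (0.12) and Fnip2, a folliculin partner (0.12).

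S100a13 lies beside S100a1 in the opposite orientation and was also higher in bone marrow, by less. The 4 bone marrow arrays, in the order of the mice, read 453, 502, 421 and 516, against 358, 383, 389 and 370 in the spleen arrays. The lowest bone marrow array, replicate 3, stood close above the highest spleen array, which was also replicate 3. S100a13 was 1.26-fold higher (0.33 ± 0.08 SE in log2 units; limma, n = 4 per group, adjusted p = 0.014), with a difference within a mouse of 0.11 in mouse 3 and up to 0.48 in mouse 4. The nearest patterns were Gnptab (0.038), Ccdc9 (0.049) and Ramp1 (0.049). RefSeq places a start of each gene 104 bases apart with transcription running away from the stretch between them. That stretch is shown in full, read on the plus strand, because these 2 neighbours were both higher in bone marrow. It held no match to the 4 motifs, so it has no capitals.
S100a1 and S100a13, chr3:90514331-90514434, plus strand: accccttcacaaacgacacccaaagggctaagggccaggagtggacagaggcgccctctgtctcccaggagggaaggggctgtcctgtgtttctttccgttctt

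S100a10, also called p11, has lost the ability to bind calcium and holds annexin A2 at the plasma membrane. The 4 bone marrow arrays, in the order of the mice, read 1666, 2279, 1770 and 1980, against 1185, 1073, 1198 and 1198 in the spleen arrays. The spleen arrays lay close together apart from replicate 2, and bone marrow replicate 2, from the same mouse, was the highest of all. S100a10 was 1.64-fold higher in bone marrow (0.72 ± 0.10 SE in log2 units; limma, n = 4 per group, adjusted p = 0.00018). The difference within a mouse was 0.49, 1.09, 0.56 and 0.72 in mice 1 to 4. Its nearest patterns were those of Ano6, a calcium-activated lipid scramblase (0.069), Tpp1, a lysosomal protease (0.074), and Lxn (0.075).

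S100a11, a partner of annexin A1, lies next to S100a10 among the measured genes and moved the opposite way. The 4 bone marrow arrays, in the order of the mice, read 1847, 1944, 1786 and 2099, against 5350, 4768, 4855 and 5191 in the spleen arrays. No array of one tissue came near the other tissue's range. S100a11 was 2.63-fold lower in bone marrow (-1.39 ± 0.08 SE on the log2 scale, 95% interval -1.57 to -1.22, n = 4 per group, limma adjusted p = 7.8e-08), and 0.838% of all genes had a lower log2 fold change. A second probe set annotated to S100a11, which was dimmer and was not used, had a level of 1309 in bone marrow, against 3579 in spleen (-1.45 ± 0.08 SE on the log2 scale). S100a11 was the only member with more than 1 single-gene probe set. Its nearest patterns were Rogdi (0.090), Scimp, an adaptor of class II and Toll-like receptor signalling (0.099), and Prss30 (0.10). The 250 bases before its start are shown as those of the member with the largest fall, with the same marking.
S100a11, chr3:93520246-93520495, plus strand: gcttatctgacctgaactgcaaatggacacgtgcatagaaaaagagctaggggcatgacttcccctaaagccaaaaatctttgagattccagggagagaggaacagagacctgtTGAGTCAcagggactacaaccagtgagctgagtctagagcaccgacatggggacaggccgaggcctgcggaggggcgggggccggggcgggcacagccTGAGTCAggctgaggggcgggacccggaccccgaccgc
It held AP-1 matches at positions -136 to -130 and -38 to -32 and none of the other 3 motifs. Of the 7 members with a RefSeq window, S100a11 was the only one with an AP-1 match. S100a8 and S100a9 were the only ones with a C/EBP match. S100a4 held a TATA box at -31 to -26 and a PU.1 match on the opposite strand at 19 to 25. Of all RefSeq windows, 40.7% held the C/EBP motif and 7.81% the AP-1 motif, so a C/EBP match is common among windows in general.

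S100a4, which binds non-muscle myosin and is associated with cell motility, was lower in bone marrow. The 4 bone marrow arrays, in the order of the mice, read 1859, 2346, 1806 and 2485, against 3410, 3400, 3603 and 3590 in the spleen arrays. The bone marrow arrays fell into a lower level in replicates 1 and 3 and a higher one in replicates 2 and 4, while the spleen arrays were close together. S100a4 was 1.66-fold lower in bone marrow (-0.73 ± 0.11 SE in log2 units; limma, n = 4 per group, adjusted p = 0.00025). The SD of its log2 intensity was 0.23 in bone marrow and 0.046 in spleen. Its nearest patterns were those of Psip1 (0.062), the small GTPase gene Rala (0.068) and the helicase gene Brip1 (0.072).

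S100a6, or calcyclin, showed the smallest shift among the lower members. The 4 bone marrow arrays, in the order of the mice, read 2101, 2263, 1703 and 2473, against 2556, 2687, 2819 and 2597 in the spleen arrays. The highest bone marrow array, replicate 4, stood just under the lowest spleen array, replicate 1. S100a6 was 1.26-fold lower in bone marrow (-0.33 ± 0.11 SE on the log2 scale, 95% interval -0.56 to -0.10, n = 4 per group, limma adjusted p = 0.047). The call ended with the mouse as a replicate block (adjusted p = 0.074), with median centring (0.104), without bone marrow replicate 1 (0.097), 2 (0.056) or 3 (0.125), and when spleen replicate 1 (0.071), 2 (0.102), 3 (0.115) or 4 (0.070) was left out. Without bone marrow replicate 3 the log2 fold change was -0.23. The SD of its log2 intensity was 0.23 in bone marrow and 0.063 in spleen. Its nearest patterns were Lactb (0.047), Plk4 (0.054) and Cdc5l (0.060).

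The members also differed in how they varied among the mice. In bone marrow replicate 2, S100a8 and S100a9 lay 0.39 and 0.24 log2 units below the mean of their tissue, while S100a10, S100a4, S100a1, S100a6, S100a13 and S100a11 lay above theirs, by 0.25, 0.16, 0.14, 0.10, 0.091 and 0.022. In bone marrow replicate 3 the signs were turned: S100a8 and S100a9 lay 0.31 and 0.13 above their mean, and the other 6 lay below, from -0.03 for S100a1 to -0.31 for S100a6. The summed neutrophil markers deviated by -0.26 in replicate 2 and 0.11 in replicate 3. In replicate 4 the neutrophil sum was also high, at 0.12, while S100a8 and S100a9 were at -0.05 and -0.02, so the pair did not follow the sum in every array. Other marker sums varied too: bone marrow replicate 2 had the highest macrophage and monocyte sums of its tissue, at 34731 and 27130. Spread in bone marrow was high for S100a8, S100a4 and S100a6, with 96.5%, 91.4% and 91.0% of all genes having a smaller SD. In spleen S100a8 was again among the most variable genes (98.4% had a smaller SD), whereas 5.25% had a smaller SD than S100a4 and 8.09% than S100a13. These deviations rest on 4 arrays per tissue and were not tested.

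**Figure D2:**
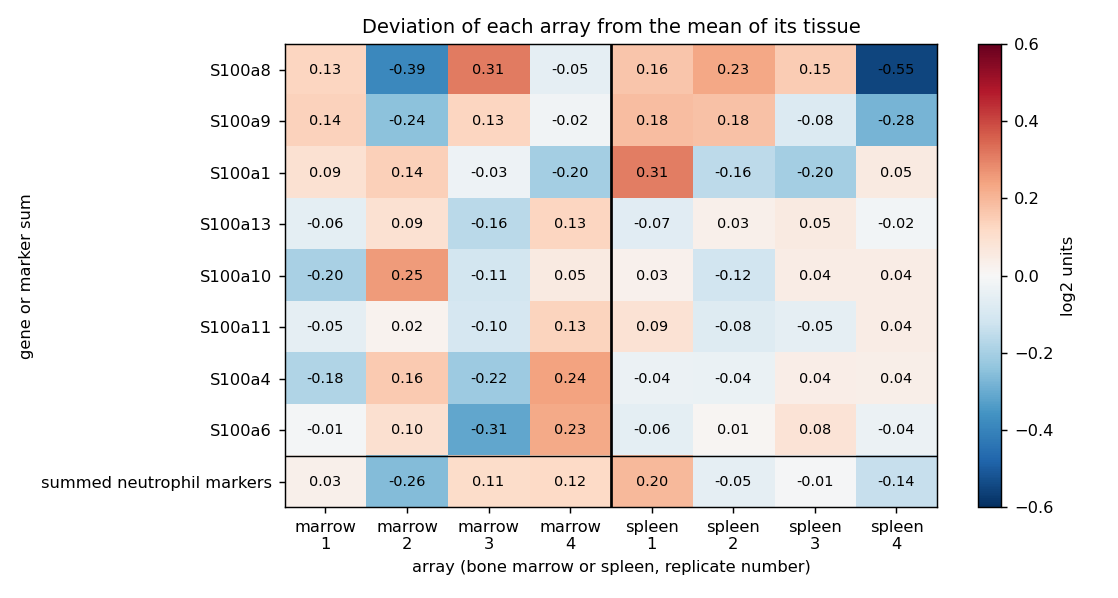
Deviation of each array from the mean of its tissue in log2 units, for the 8 members and for the summed neutrophil markers; columns are the 4 bone marrow arrays and then the 4 spleen arrays, numbered by replicate, and each cell prints its value. S100a8 reaches -0.39 in bone marrow replicate 2 and -0.55 in spleen replicate 4, while S100a4 and S100a6 vary in bone marrow and stay within 0.082 of their mean in spleen.

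The S100a genes sit in one region of chromosome 3, and their differences did not run along it as a block. RefSeq lists 70 protein-coding genes from S100a1 to S100a10, of which 60 were measured, and 12 of these, all S100 genes, follow each other without another measured gene from S100a1 to S100a9. In that order S100a1 and S100a13 were higher in bone marrow, S100a3, S100a4 and S100a6 were lower, S100a8 and S100a9 were higher, and S100a14, S100a16, S100a2, S100a5 and S100a7a did not pass. Of the 56 measured genes of the region and its 5 neighbours on either side that are not S100 genes, 1 was higher and 1 lower, with a median log2 fold change of -0.02. These were Snapin, a SNARE-associated protein, at 523 in bone marrow, against 424 in spleen (0.31 ± 0.08 SE on the log2 scale, limma adjusted p = 0.020), and Ilf2, a nuclear RNA-binding protein, at 689 in bone marrow, against 873 in spleen (-0.34 ± 0.09 SE, adjusted p = 0.019). The Snapin call ended without bone marrow replicate 4 (adjusted p = 0.058) or spleen replicate 2 (0.067). For Ilf2 it ended with median centring (0.053), when bone marrow replicate 1 (0.056) or 3 (0.060) was left out, and when spleen replicate 1 (0.060), 2 (0.061) or 3 (0.054) was. The genes between S100a9 and S100a11 are mostly those of the outer skin layer, such as loricrin, small proline-rich proteins and late cornified envelope proteins, and none of them passed.

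**Figure D3:**
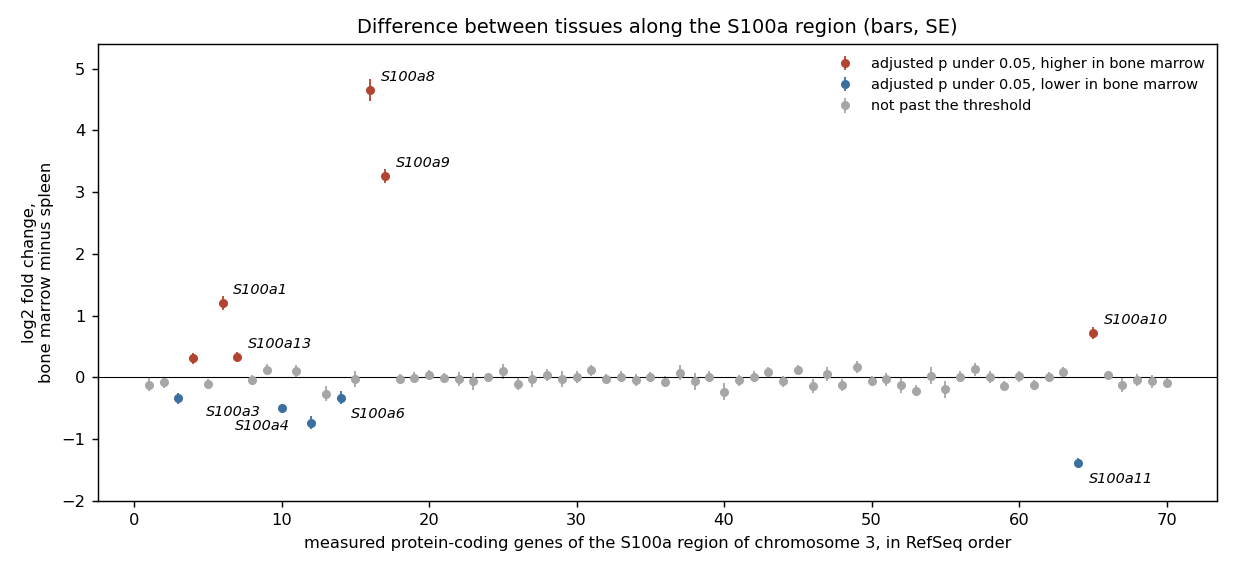
Log2 fold change (bone marrow minus spleen, bars SE) of 70 measured protein-coding genes in RefSeq order along the S100a region of chromosome 3, with 5 genes on either side; red points are higher and blue points lower in bone marrow at an adjusted p under 0.05, and grey points did not pass. S100a8 (4.66) and S100a9 (3.26) stand side by side between S100a7a and Pglyrp4, neither of which passed. S100a10 (0.72) and S100a11 (-1.39) point in opposite directions side by side.

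Of the 8 genes in the list of other S100 genes, all measured, 1 was lower in bone marrow and none was higher by limma. This count is near the 18.5% of all genes called in either direction. At an unadjusted p under 0.05 in limma the counts were 2 lower and 0 higher. S100a3 was the lower one, at 61.2, 66.0, 56.8 and 60.7 in bone marrow replicates 1 to 4, against 85.6, 92.7, 83.7 and 85.1 in spleen replicates 1 to 4. The groups did not overlap, at a dim level in both (-0.50 ± 0.08 SE in log2 units; limma, n = 4 per group, adjusted p = 0.00039). S100a5 had a level of 85.8 in bone marrow, against 103 in spleen (-0.26 ± 0.12 SE, adjusted p = 0.18), and passed without bone marrow replicate 3 (-0.37, adjusted p = 0.0287). S100a7a, S100a14, S100a16, S100b, S100g and S100z had geometric means of 103, 47.0, 132, 101, 106 and 43.3 in bone marrow, and of 105, 48.3, 121, 99.3, 98.5 and 40.6 in spleen, with log2 fold changes between -0.04 and 0.12. Whether these dim probe sets lay above background is unknown. S100a2, which was measured but not in the list and was chosen after its value was seen, had a level of 87.9 in bone marrow, against 82.1 in spleen.

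Receptors for extracellular S100 proteins were in part higher in bone marrow. Of 10 measured, limma called 5 as higher and none as lower, with 6 higher and 0 lower at an unadjusted p under 0.05, and their median log2 fold change was 0.64. Over all genes, 18.5% were called in either direction. Tlr4, the receptor of lipopolysaccharide and of S100a8, was 296, 340, 264 and 282 in bone marrow replicates 1 to 4, against 80.8, 67.5, 87.4 and 65.0 in spleen replicates 1 to 4 (1.98 ± 0.11 SE in log2 units; limma, n = 4 per group, adjusted p = 5.9e-08). All 4 bone marrow arrays were far above the spleen arrays, where Tlr4 lay below the array medians of 125 to 135. Whether Tlr4 was above background in spleen is unknown. The Tlr4 co-receptor Cd14, which also served as a monocyte marker, was 4.71-fold higher, and the scavenger receptor Cd36 was 3.05-fold higher. Ly96, the Tlr4 partner MD-2, and Cd33, described in human cells as a receptor of S100A9, were 2.05-fold and 2.97-fold higher. Ly96 was dim, at 137 in bone marrow and 66.9 in spleen. Its log2 difference within a mouse ran from 0.28 in mouse 4 to 2.38 in mouse 2. With the dimmest 40% of genes left out, 4 receptors passed as higher. Ager, the RAGE receptor, had a level of 300 in bone marrow, against 320 in spleen (-0.09 ± 0.09 SE, adjusted p = 0.64), and Bsg, another S100a9 receptor, at 1527 in bone marrow, against 1292 in spleen (0.24 ± 0.08 SE, adjusted p = 0.064). The monocyte and macrophage sums given above moved the same way, and their part in these receptor levels was not tested.

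Among the annexins, which S100 dimers bridge to membranes, 4 of 8 were higher in bone marrow and 1 was lower. The share of all genes called in either direction was 18.5%. Anxa1, the partner of S100a11, was 791, 1036, 968 and 1267 in bone marrow replicates 1 to 4, against 534, 669, 610 and 621 in spleen replicates 1 to 4 (0.72 ± 0.13 SE on the log2 scale, limma adjusted p = 0.0012). It was thus higher in bone marrow while S100a11 was lower. Anxa2, the partner of S100a10, had a level of 1105 in bone marrow, against 880 in spleen (0.33 ± 0.09 SE, adjusted p = 0.026), in the same direction as S100a10. Anxa5 was 1.65-fold higher and Anxa4 1.29-fold higher. Anxa6 was the lower one, at 927, 1087, 1004 and 1416 in bone marrow replicates 1 to 4, against 2725, 2942, 2785 and 2252 in spleen replicates 1 to 4 (-1.28 ± 0.13 SE, adjusted p = 9.9e-06). Leaving out bone marrow replicate 2 (adjusted p = 0.078) or 4 (0.075), or spleen replicate 1 (0.056) or 2 (0.076), ended the Anxa2 call. For Anxa4 these were bone marrow replicates 2 (0.082) and 3 (0.076) and spleen replicates 1 (0.075) and 4 (0.073), so 2 annexins were higher when bone marrow replicate 2 or spleen replicate 1 was left out.

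Of 8 other intracellular partners, limma called 2 as higher in bone marrow and none as lower, with 2 higher and 1 lower at an unadjusted p under 0.05. This is a count close to the 18.5% of all genes called in either direction. Ahnak, a giant scaffold that binds S100a10 with annexin A2, was 799, 811, 679 and 705 in bone marrow replicates 1 to 4, against 195, 212, 150 and 217 in spleen replicates 1 to 4 (1.96 ± 0.12 SE on the log2 scale, limma adjusted p = 1.0e-07). The scaffold protein gene Iqgap1 was 1.26-fold higher (adjusted p = 0.0099). Myh9, the myosin heavy chain that S100a4 binds, had a level of 2502 in bone marrow, against 2741 in spleen (-0.13 ± 0.13 SE, 95% interval -0.41 to 0.15, adjusted p = 0.64). Cacybp, the S100a6-binding protein, had a level of 807 in bone marrow, against 934 in spleen (-0.21 ± 0.08 SE, adjusted p = 0.104). Without spleen replicate 4, 1 gene of this list passed as lower. The cytokine genes Il1a and Fgf1, whose products S100a13 helps to export, were dim, at 43.7 and 78.9 in bone marrow and at 33.9 and 62.3 in spleen. In both, bone marrow replicate 2 was the highest array, at 90.6 for Il1a and 122 for Fgf1.

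The NADPH oxidase, which calprotectin supplies with arachidonic acid in neutrophils, had 5 measured subunit genes, of which 1 was called higher in bone marrow and none was called lower, with the same counts at an unadjusted p under 0.05 in limma. That count is near the 18.5% of all genes called in either direction. Cybb, the catalytic subunit, had a level of 7262 in bone marrow, against 3824 in spleen (0.93 ± 0.07 SE in log2 units; limma, n = 4 per group, adjusted p = 1.2e-06). Cyba, Ncf1, Ncf4 and Rac2 had log2 fold changes between -0.01 and 0.11.

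Of 8 transcription factors linked to S100a8 and S100a9 or to granulocyte genes, 5 passed as higher in bone marrow and none as lower, also at an unadjusted p under 0.05 in limma. Among all genes, 18.5% passed in either direction. All 4 C/EBP factors of the list were among the 5. Cebpa was 1088, 1073, 896 and 982 in bone marrow replicates 1 to 4, against 584, 486, 503 and 677 in spleen replicates 1 to 4 (0.85 ± 0.11 SE on the log2 scale, limma adjusted p = 0.00010). The groups did not overlap. Cebpd was 1.55-fold and Cebpe, the factor of late granulocyte maturation, 1.37-fold higher, and Cebpb had a level of 215 in bone marrow, against 153 in spleen. Irf7 was 1.62-fold higher (0.69 ± 0.13 SE, adjusted p = 0.0023). Spi1, which encodes PU.1, had a level of 2753 in bone marrow, against 2968 in spleen (-0.11 ± 0.09 SE, 95% interval -0.30 to 0.09, adjusted p = 0.55), and Gfi1 and Stat3 at 127 and 2720 in bone marrow and at 131 and 2848 in spleen.

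Other EF-hand proteins went both ways, with 2 of 11 higher and 3 lower in bone marrow and a median log2 fold change of -0.11. Aif1, the macrophage actin-bundling protein IBA1, was 2.17-fold higher (1.12 ± 0.12 SE, limma adjusted p = 2.6e-05), and the calpain small subunit Capns1 was 1.35-fold higher. The alpha-actinin gene Actn1 was 336, 689, 387 and 361 in bone marrow replicates 1 to 4, against 1523, 1365, 1251 and 974 in spleen replicates 1 to 4 (-1.57 ± 0.20 SE, adjusted p = 9.0e-05). Gca, which encodes grancalcin, a protein named for granulocytes, was 1.51-fold lower in bone marrow, opposite to S100a8 and S100a9, and Lcp1, the leukocyte plastin, was 1.21-fold lower. The Capns1 call ended without bone marrow replicate 2 (adjusted p = 0.060) or 4 (0.054), when 1 gene of the list was higher. The Lcp1 call ended with the mouse as a replicate block (0.071), with median centring (0.073), when bone marrow replicate 1 (0.095), 3 (0.066) or 4 (0.0501) was left out, and when spleen replicate 1 (0.066), 2 (0.078) or 3 (0.079) was. Over all 7 lists, 19 of 58 genes were higher and 5 lower, which is 41.4% called beside 18.5% of all genes. The lists were drawn up with results of these arrays known.

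**Figure D4:**
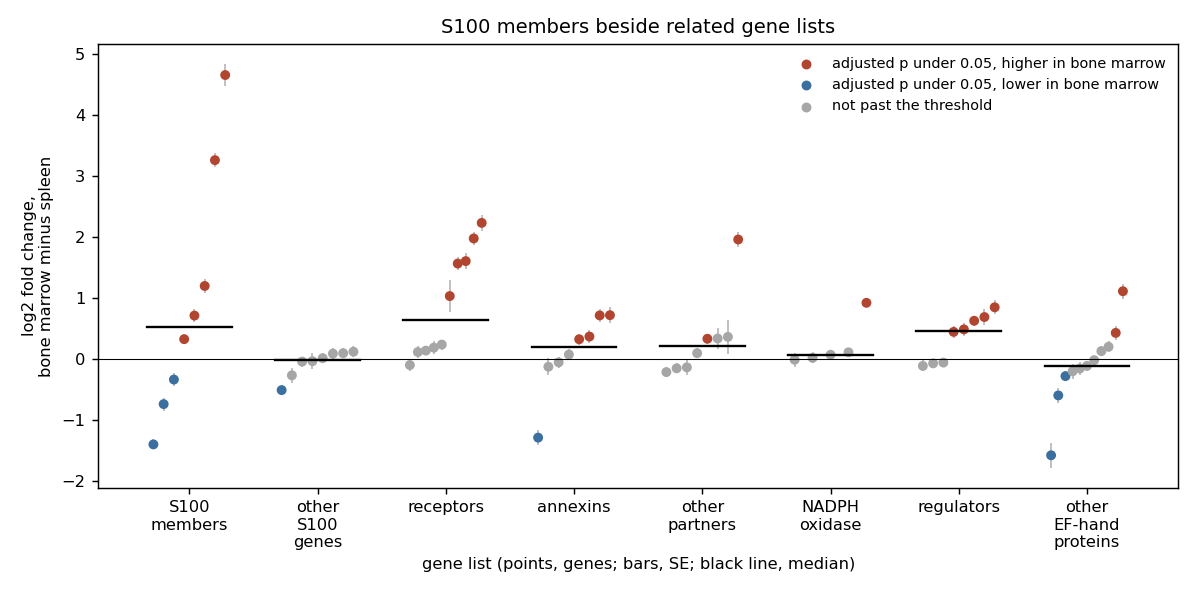
Log2 fold change (bone marrow minus spleen) of the 8 S100 members and of 7 related gene lists; points are genes with SE bars, black lines medians, red and blue points higher and lower in bone marrow at an adjusted p under 0.05, grey points not past the threshold. S100a8 and S100a9 lie above every gene of the other lists, of which Cd14 reaches 2.23, while S100a11, Anxa6 and Actn1 lie below -1.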

How the data were processed

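Gene expression was measured on Affymetrix mogene 1.0 ST arrays in 4 bone marrow and 4 spleen samples. The deposited values are linear intensities, 1 per probe set and array. Per the submitters' processing notes, the authors used Affymetrix Expression Console 1.4, and the sources used here do not name its normalization. Array medians ranged from 125 to 135. Probe sets were named through the platform annotation: of 35556, 21789 had 1 gene symbol, 1621 several and 12146 were unlisted. The brightest single-gene probe set per gene was kept (19938 genes, no filter), and list genes and markers without one were not analysed here.

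The log2 of the deposited intensities was fitted in R 4.3.3 by limma 3.58.1 (lmFit, eBayes; two-sided) as bone marrow minus spleen, adjusted by the Benjamini-Hochberg method over all genes, threshold 0.05. Levels are geometric means, and SE is moderated. The number of arrays limits the precision. The fit was also run on simulated data, and the outcome of that run is not given here. Same-numbered arrays come from the same mouse, per the labels' descriptions; deviations within a mouse correlated with r of 0.096, -0.088, -0.178 and -0.054, so a replicate block was run as an alternative beside 14 others. Members and lists were chosen with earlier results of these data known. Named genes are all members and other S100 genes, the 3 list genes with the largest called change in each direction, the called chromosomal neighbours and the nearest patterns; other genes were chosen after their values were seen. Promoter windows are from RefSeq, GRCm38.p6, for 7 of the 8 members (not S100a10). The planned protein comparison was not made.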

Additional observations from a re-analysis of the deposited data

Results flagged for a closer look

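In 140 groups of 4 arrays (62 named genes beside the 8 members, in 2 tissues), 7 held an array whose gap to its neighbour made up most of the range of its group by Dixon's criterion, and chance flags about 1 in 20 groups. All 7 were spleen arrays. S100a8 was 117 in spleen replicate 4, against 191 to 202 in the other spleen arrays. S100a10 was 1073 in spleen replicate 2, against 1185 to 1198. S100a7a was 84.2 and S100a2 was 67.9 in spleen replicate 3, against 111 to 116 and 86.5 to 88.9. Aif1 was 914 in spleen replicate 4, against 676 to 708, and Ilf2 was 738 in spleen replicate 4, against 921 to 926. Cd33 was 603 in spleen replicate 2, against 697 to 717.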

How the results depend on the processing

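Under 15 alternatives (7 settings and 8 fits that each left out an array), 7 of the 8 members kept their direction and their call. Of these 7, S100a13 kept its call most narrowly, with a limma adjusted p of 0.047 without bone marrow replicate 2 and 0.036 with the replicate block. When an array was left out, the log2 fold change ran from 4.47 to 4.79 for S100a8, 3.17 to 3.34 for S100a9 and -0.41 to -0.23 for S100a6. S100a6 kept its direction in all 15 and its call in 6. Its log2 fold change was -0.32 with median centring and -0.33 with the replicate block, in neither of which it passed, and the cause was not tested. Among the members the replicate block ended no other call. The mean difference between S100a8 with S100a9 and the other 6 members ran from 3.85 to 4.14. The number of all genes past the threshold ran from 3144 to 3868.

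For 3 dim genes that never passed, the sign of the log2 fold change turned. S100a7a ran from -0.14 to 0.041 when an array was left out, and was positive without bone marrow replicates 2 and 4 (0.028) and spleen replicates 1 (0.00437) and 4 (0.0160). S100a14 ran from -0.067 to 0.024 and was positive without bone marrow replicate 2. S100b ran from -0.0148 to 0.061, was negative without bone marrow replicate 2 and spleen replicate 4, and was at -0.00604 with array weights. Without a detection call, dim probe sets give no lower bound of a level. S100a3 had no value with the dimmest 40% of genes left out.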
